A study of Mus musculus with 12 samples.

Results

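The genes described here are 10 genes that low oxygen is known to raise, chosen as a list by symbol: *Bnip3*, *Ero1l* (now *Ero1a*), *Vegfa*, *Plod2*, *P4ha1*, *P4ha2*, *Car9*, *Ndrg1*, *Ankrd37* and *Adm*. The list was chosen with earlier results of these data known. All 10 were found among the 12774 gene symbols of the table. They were followed in C17.2, an immortalised line of progenitor cells from mouse cerebellum. The cells carried a stably expressed, tagged receptor for thyroid hormone, the beta receptor in C17.2b and the alpha receptor in C17.2a. Each line was given T3 (triiodothyronine, the active hormone) at 1e-07 M for 6, 12 or 24 h or was left untreated for the same time, after 24 h without serum in every group. Each of these 12 conditions had 1 library, so no level has a replicate, and no label names a low-oxygen treatment. The labels do not say whether a line is 1 clone, nor how much receptor it makes.

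Cells sense oxygen through the factors HIF1A and EPAS1 (HIF2A). Prolyl hydroxylases of the EGLN family mark both for destruction while oxygen is present. When oxygen falls, the factors persist, pair with ARNT and bind DNA at a short core motif near genes that let tissue live with less oxygen. The products of the 10 genes act on different parts of the cell. BNIP3 marks mitochondria for removal, ERO1A drives disulphide formation in the endoplasmic reticulum, CAR9 is a carbonic anhydrase at the cell surface that controls pH, and PLOD2, P4HA1 and P4HA2 hydroxylate collagen. VEGFA and adrenomedullin, the product of *Adm*, are secreted and act on vessels, NDRG1 is a stress-responsive protein of differentiating cells, and ANKRD37 is a small ankyrin-repeat protein.

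The promoters of the 4 genes with a significant T3 response at 24 h are shown first, because these genes passed in the limma test at that time. Those calls depended on which pairs were included, as described below. Each window runs from 250 bases before to 50 bases after the RefSeq start, on the strand of the gene, in build GRCm38.p6. The capitals mark the core to which HIF factors bind, ACGTG or GCGTG, on either strand (CACGT or CACGC where it lies on the other strand). The windows are chr7:138909457-138909756 (minus strand) for *Bnip3*, chr14:45318523-45318822 (minus) for *Ero1l*, chr4:43506776-43507075 (plus) for *Car9* and chr8:45999801-46000100 (minus) for *Ankrd37*.
Bnip3: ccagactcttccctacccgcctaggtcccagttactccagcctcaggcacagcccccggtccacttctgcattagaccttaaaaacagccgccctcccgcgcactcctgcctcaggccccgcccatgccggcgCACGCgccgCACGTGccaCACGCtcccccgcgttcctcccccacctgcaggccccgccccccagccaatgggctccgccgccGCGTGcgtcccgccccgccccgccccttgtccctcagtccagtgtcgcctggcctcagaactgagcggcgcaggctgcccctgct
Ero1l: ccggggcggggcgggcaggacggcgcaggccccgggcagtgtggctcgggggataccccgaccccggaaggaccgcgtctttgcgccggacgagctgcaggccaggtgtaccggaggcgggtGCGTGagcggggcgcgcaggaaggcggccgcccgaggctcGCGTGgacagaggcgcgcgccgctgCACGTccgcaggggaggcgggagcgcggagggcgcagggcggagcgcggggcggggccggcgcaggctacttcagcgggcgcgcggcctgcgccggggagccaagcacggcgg
Car9: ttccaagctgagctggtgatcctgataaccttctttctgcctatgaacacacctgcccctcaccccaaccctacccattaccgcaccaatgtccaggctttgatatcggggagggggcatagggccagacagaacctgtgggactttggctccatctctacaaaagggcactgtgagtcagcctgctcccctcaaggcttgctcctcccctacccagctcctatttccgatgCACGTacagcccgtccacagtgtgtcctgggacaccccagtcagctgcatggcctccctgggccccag
Ankrd37: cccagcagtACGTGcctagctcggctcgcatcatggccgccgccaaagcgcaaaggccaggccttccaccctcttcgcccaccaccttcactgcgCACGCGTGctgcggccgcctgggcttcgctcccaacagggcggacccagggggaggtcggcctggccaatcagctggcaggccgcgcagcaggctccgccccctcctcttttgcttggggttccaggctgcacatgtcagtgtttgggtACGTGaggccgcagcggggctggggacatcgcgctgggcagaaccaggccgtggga

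*Bnip3* held 5 matches to the core, of which 1 on each strand overlap in a single CACGTG, *Ankrd37* held 4 with 1 overlapping pair, *Ero1l* 3 and *Car9* 1. The match of *Car9* ends 14 bases before the start. The sequence tables held windows for 8 of the 10 genes, 9 windows in all because *Vegfa* has 2 starts. Of the 9 windows 8 held at least 1 match and 5 held at least 3, against 43.8% and 8.93% of the 32851 mouse windows of the same kind. The upstream *Vegfa* window (chr17:46032328-46032627, minus strand) held 0 matches, which says only that these letters are not in those 300 bases. The 2 matches of *Vegfa* lay in the downstream window (chr17:46025114-46025413). The genes were chosen as known to respond to low oxygen and the core is that of HIF factors, so these shares only describe the list. The half-site of thyroid hormone receptors, AGGTCA, was in 0 of the 9 windows and in 16.3% of all windows. The direct repeat of that half-site with 4 bases between was in 0.0152% of all windows. These matches describe the sequence and are not measurements of binding.

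Levels are given in RPM, in which every library adds up to an equal total of tags. The implied depth was 7.12e+06 to 1.91e+07 tags per library, so that 3 tags, taken as the limit of detection, correspond to 0.157 to 0.421 RPM, counting error only. The neural progenitor markers *Nes* (at least 70.2 RPM), *Sox2* (at least 62.0 RPM) and *Vim* (at least 1112 RPM) were present in all 12 libraries, and *Msi1* ranged from 0 to 4.35 RPM. The fibroblast marker *Col1a1* was also present, at 747 RPM or more, and the summed level of the 4 fibroblast markers was 1726 to 8585 RPM with T3 and 2111 to 7025 RPM without. That of the 7 progenitor markers in the table was 1351 to 3065 RPM with T3 and 2321 to 5778 RPM without. The part of these marker levels in the results was not tested. The C17.2a 24 h pair stood apart: across genes the Spearman correlation of its T3 and untreated libraries was 0.941, against 0.977 to 0.985 in the other 5 pairs. A correlation does not say which of the libraries differs. In the T3 library 875 genes had no value, the most of any library, and in the untreated one 479, the fewest. *Klf9*, a gene T3 raises in many cells, was at 5.25 RPM with T3 and 7.25 RPM untreated in that pair and was higher with T3 in the other 5, while *Hr*, another such gene, was higher with T3 in all 6 (47.0 RPM with T3 and 4.29 RPM untreated in that pair). *Thra*, which encodes the alpha receptor, was at 0.12 to 5.83 RPM over all 12 libraries, and its ranges in C17.2b and C17.2a overlapped. The 0.12 RPM was that of the C17.2a T3 24 h library, under its limit of detection (0.358 RPM). Results that rest on the C17.2a 24 h pair are therefore also given without it. In cultured cells measured in bulk, a change in how many cells express a gene and a change in each cell cannot be told apart.

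With T3, 7 of the 10 genes were higher in a limma test over the 6 pairs, each made of the T3 and the untreated library for one line and one time: *Bnip3*, *Ero1l*, *Vegfa*, *Plod2*, *P4ha2*, *Car9* and *Ankrd37*. None was lower. Of all 10577 genes tested, 4.09% were called higher and 2.35% lower. *P4ha1* and *Ndrg1* were tested and did not pass, and *Adm* lay below the filter on low levels. The 9 tested genes had at least 5.08 RPM in every library, so none entered the test through its T3 libraries alone. The median log2 fold change of the 9 was 1.42, against -0.01 over all genes tested. T3 libraries were above their untreated partner in all 6 pairs for the 7 called genes, a pattern seen in 8.06% of all genes tested. Because the list was chosen with earlier results of these data known, these shares describe it and are not independent support.

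**Figure D1:**
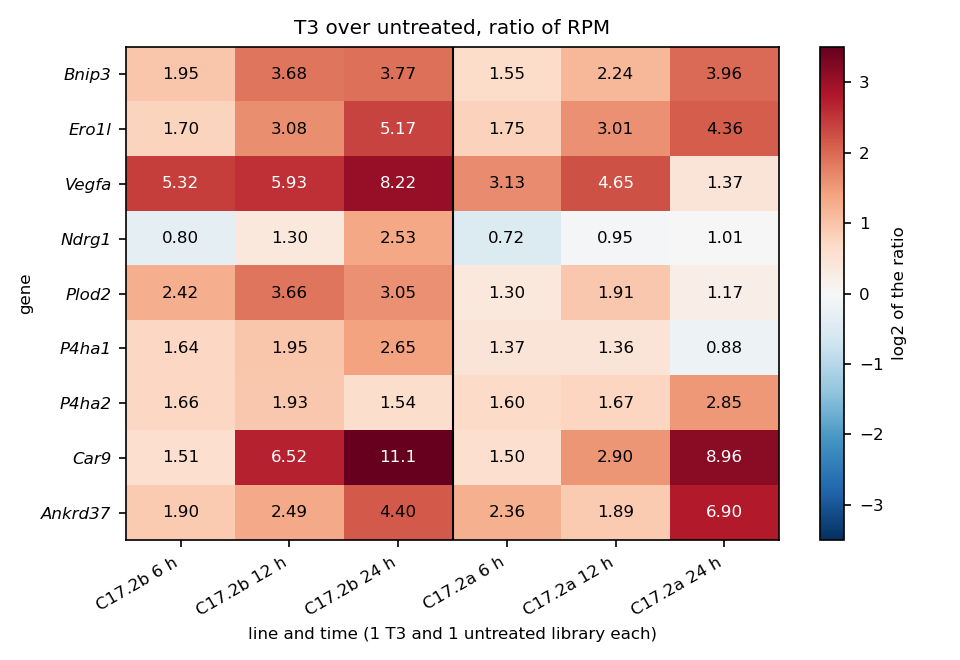
Ratio of RPM, T3 over untreated, for 9 genes (rows) in each line and time (columns, 1 T3 and 1 untreated library each), coloured by the log2 of the ratio. *Car9* has the darkest cells, 11.1 in C17.2b and 8.96 in C17.2a at 24 h, and *Ndrg1* and *P4ha1* hold the ratios below 1.

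*Bnip3* and *Ero1l* rose the most alike. *Bnip3* stood at 414, 684 and 853 RPM after 6, 12 and 24 h of T3 in C17.2b, against 213, 186 and 226 RPM in untreated C17.2b cells. In C17.2a it stood at 480, 559 and 893 RPM with T3, against 310, 250 and 225 RPM untreated. Every T3 library lay above every untreated library, and the T3 levels were higher at each later time in both lines. The log2 fold change over the 6 pairs was 1.42 (SE 0.19, n = 6 pairs, adjusted p = 0.00314 in limma).

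*Ero1l* gave 83.9, 132 and 206 RPM at 6, 12 and 24 h with T3 in C17.2b, against 49.3, 42.7 and 39.9 RPM untreated. In C17.2a it gave 97.7, 173 and 203 RPM with T3, against 55.9, 57.4 and 46.4 RPM untreated. The T3 and untreated ranges did not overlap. Its log2 fold change was 1.53 (SE 0.21, n = 6 pairs, adjusted p = 0.00399 in limma). Across the 12 libraries the levels of *Ero1l* and *Bnip3* had a Pearson r of 0.972 on the log2 scale, the highest of any pair among the 9 genes, over libraries that share line, time and hormone.

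*Car9* had the largest ratios at 24 h in both lines and a different untreated level in each line, while *Vegfa* had the larger ratios at 6 h. It stood at 11.2, 42.2 and 81.4 RPM after 6, 12 and 24 h of T3 in C17.2b, against 7.39, 6.46 and 7.32 RPM in untreated C17.2b cells. In C17.2a it stood at 73.0, 152 and 198 RPM with T3, against 48.8, 52.3 and 22.2 RPM untreated. Within each line every T3 library was above every untreated one, but the C17.2b T3 library of 6 h lay below every untreated C17.2a library. The log2 fold change was 1.93 (SE 0.39, n = 6 pairs, adjusted p = 0.0187 in limma). That call did not survive when C17.2a lost its 12 h libraries (adjusted p = 0.0527), or when C17.2b lost those of 12 h (0.0819) or 24 h (0.0611).

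The 3 collagen hydroxylases went separate ways. P4HA1 and P4HA2 are the alternative catalytic subunits of collagen prolyl 4-hydroxylase, and PLOD2 is a lysyl hydroxylase. *P4ha2* stood at 282, 301 and 264 RPM after 6, 12 and 24 h of T3 in C17.2b, against 170, 156 and 171 RPM untreated. In C17.2a it stood at 249, 274 and 304 RPM with T3, against 155, 164 and 107 RPM untreated. The groups did not overlap, and the T3 levels were nearly level over time. The log2 fold change was 0.87 (SE 0.12, n = 6 pairs, adjusted p = 0.00418 in limma).

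*Plod2* gave 46.2, 47.6 and 43.5 RPM at 6, 12 and 24 h with T3 in C17.2b, against 19.1, 13.0 and 14.2 RPM untreated. In C17.2a it gave 44.4, 43.7 and 24.8 RPM with T3, against 34.3, 22.8 and 21.1 RPM untreated. The groups were well apart in C17.2b and overlapped in C17.2a through the 24 h T3 library. The log2 fold change of 1.01 (SE 0.21, n = 6 pairs, adjusted p = 0.0228 in limma) lost its call without the C17.2a 12 h pair or any 1 of the 3 pairs of C17.2b (adjusted p 0.0714 to 0.0847).

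*P4ha1* moved mainly with time. It stood at 126, 146 and 672 RPM at 6, 12 and 24 h with T3 in C17.2b, against 77.1, 74.8 and 254 RPM untreated. In C17.2a it stood at 162, 186 and 472 RPM with T3, against 118, 137 and 535 RPM untreated. All 4 libraries of 24 h were above all 8 earlier ones, and in C17.2a at 24 h the T3 library was below its untreated partner. The log2 fold change with T3 was 0.63 (SE 0.18, n = 6 pairs, adjusted p = 0.0802 in limma) and did not pass. Without the C17.2a 24 h pair it was 0.79 and passed (adjusted p = 0.00176), as it did with median-ratio scaling (0.0475).

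Of the secreted factors only *Vegfa* was detected at more than trace level. It gave 27.0, 30.3 and 103 RPM at 6, 12 and 24 h with T3 in C17.2b, against 5.08, 5.11 and 12.5 RPM untreated. In C17.2a it gave 22.3, 33.5 and 29.2 RPM with T3, against 7.11, 7.20 and 21.3 RPM untreated. The T3 and untreated groups did not overlap, although the margin was small: the lowest T3 value (22.3 RPM) and the highest untreated one (21.3 RPM) both came from C17.2a. The log2 fold change was 1.92 (SE 0.28, n = 6 pairs, adjusted p = 0.00467 in limma). *Adm* ranged from 0 to 0.28 RPM with T3 and from 0 to 0.09 RPM without. These values correspond to 3 tags or fewer in every library, at or under the detection limit, so no fold change is given.

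*Ankrd37* stood at 54.3, 97.1 and 73.3 RPM after 6, 12 and 24 h of T3 in C17.2b, against 28.6, 39.0 and 16.7 RPM untreated. In C17.2a it stood at 76.8, 70.0 and 69.7 RPM with T3, against 32.6, 37.0 and 10.1 RPM untreated. All T3 libraries were above all untreated ones, which was so for *Bnip3*, *Ero1l*, *Vegfa*, *P4ha2* and *Ankrd37*, 5 of the 9 genes, and for 1.47% of all genes tested. Its log2 fold change was 1.51 (SE 0.23, n = 6 pairs, adjusted p = 0.00604 in limma).

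*Ndrg1* was the exception at the early time. It gave 74.7, 138 and 280 RPM at 6, 12 and 24 h with T3 in C17.2b, against 93.1, 106 and 111 RPM untreated. In C17.2a it gave 96.0, 113 and 178 RPM with T3, against 133, 120 and 176 RPM untreated. The T3 library was the lower of the pair in both lines at 6 h and clearly the higher in C17.2b at 24 h. Over the 6 pairs the log2 fold change was 0.15 (SE 0.21, adjusted p = 0.791 in limma), and it was -0.09 without the C17.2b 24 h pair.

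**Figure D2:**
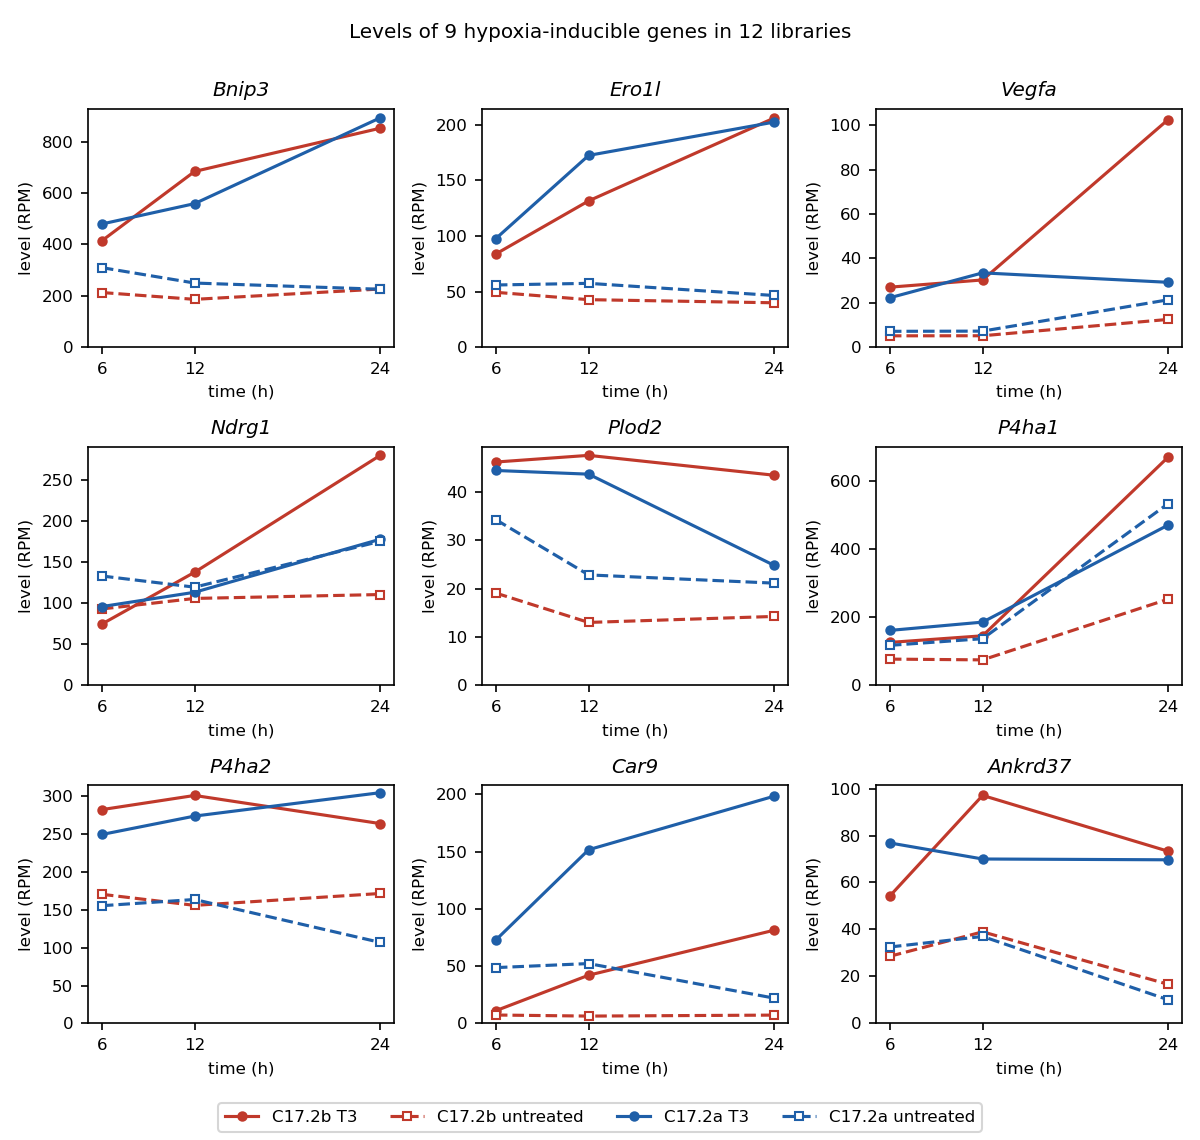
Levels in RPM (linear axes from 0) against time in hours for 9 genes, 1 library a point, with T3 (filled circles, solid lines) and untreated (open squares, dashed lines) in C17.2b (red) and C17.2a (blue). The T3 lines of *Bnip3*, *Ero1l* and *Car9* climb from 6 to 24 h, and the untreated lines of *Bnip3* and *Ero1l* stay below them. The untreated C17.2a line of *Car9* lies above the C17.2b T3 line at 6 and 12 h and falls at 24 h. *P4ha1* climbs in all 4 groups at 24 h, and the untreated lines of *Ankrd37* fall at 24 h.

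The next question was whether the response grows with time. The median ratio of the 9 genes was 1.70, 3.08 and 3.77 at 6, 12 and 24 h in C17.2b, and 1.55, 1.91 and 2.85 in C17.2a. Over all genes tested the median log2 ratio of a pair lay between -0.12 (C17.2a at 24 h) and 0.06 (C17.2b at 24 h). The number of genes with a ratio of at least 2 was 2, 6 and 8 of 9 in C17.2b and 2, 4 and 5 in C17.2a. The share of all genes with such a ratio was not computed, so these counts alone do not show growth. Across all genes, T3 and untreated libraries were less alike at 24 h (Spearman correlation 0.977 in C17.2b and 0.941 in C17.2a) than earlier (0.982 to 0.985). At 6 h 0 of the 9 passed in limma, with 0.113% of all genes called higher and 0.0473% lower. *Bnip3* (log2 fold change 1.52, SE 0.20, n = 2 pairs), *Ero1l* (1.59, SE 0.16) and *Car9* (2.03, SE 0.26) passed at 12 h with adjusted p of 0.0365, 0.0217 and 0.0365 in limma, and 0.359% of all genes were called higher and 0.132% lower. At 24 h *Bnip3* (1.95, SE 0.20), *Ero1l* (2.22, SE 0.16), *Car9* (3.21, SE 0.26) and *Ankrd37* (2.37, SE 0.22) passed with adjusted p of 0.0108, 0.00374, 0.0058 and 0.0076 in limma, and 0.681% of all genes were called higher and 0.378% lower. The 12 h calls were lost without any 1 of the 4 pairs of 6 and 12 h, and the 24 h calls without either pair of 6 h. At 12 h *Bnip3* was also lost with median-ratio scaling (adjusted p = 0.0554). The counts at 6, 12 and 24 h were instead 6, 8 and 8 of 9 without the C17.2a 24 h pair, when 680, 690 and 588 of all genes were called. Without the C17.2b 24 h pair they were 6, 8 and 5 of 9, when 682, 690 and 4305 of all genes were called. In both fits the 24 h response rests on 1 pair. At 6 h, 5 of the 9 had an unadjusted p under 0.05, as had 7.61% of all genes, and the log2 fold change of *Vegfa* was 1.86 (SE 0.53).

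The growth itself, the response at 24 h minus that at 6 h, was positive for 8 of the 9 genes. The median of the 9 was 1.07 on the log2 scale, against -0.03 over all genes tested. The share of all genes with a positive value was not computed. For *Plod2* (0.08, SE 0.55) and *P4ha1* (0.03, SE 0.49) the positive value was smaller than its SE. The log2 values were 2.65 (SE 0.37) for *Car9*, 1.45 (SE 0.22) for *Ero1l*, 1.31 (SE 0.31) for *Ankrd37*, 1.15 (SE 0.28) for *Bnip3* and 1.07 (SE 0.43) for *Ndrg1*, with unadjusted p of 0.000186, 0.000344, 0.00417, 0.00484 and 0.0411 in limma. None passed adjustment (adjusted p 0.546 to 0.726), and 0% of all genes did, while 5.61% of all genes had an unadjusted p under 0.05. *Vegfa*, *Plod2*, *P4ha1* and *P4ha2* had values of -0.17 to 0.36 with SE of 0.31 to 0.75. Without the C17.2a 24 h pair, *Car9* (2.75, adjusted p = 0.00478), *Ero1l* (1.57, 0.00557) and *Ndrg1* (1.72, 0.00612) passed in limma, among 76 genes in all. Without the C17.2b 24 h pair 7 of the 9 passed, *Vegfa* (-1.43) and *P4ha1* (-0.76) with a smaller response at 24 h, among 3342 genes in all. Each of these fits has only 1 pair at 24 h. The response at 12 h minus that at 6 h was positive for all 9, with a median of 0.54, against 0.06 over all genes tested. It passed for 0 of the 9 (adjusted p = 1 for each in limma). The unadjusted p in limma was under 0.05 for *Car9*, *Ero1l* and *Bnip3* and for 0.813% of all genes.

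In each line separately the ratio at 24 h exceeded that at 12 h, and that at 12 h exceeded that at 6 h, for *Bnip3*, *Ero1l*, *Car9* and *Ndrg1*. This held for 4 of the 9 genes and for 5.56% of all genes tested. A ratio larger at 24 h than at 6 h in both lines was seen for these 4 and *Ankrd37*, 5 of the 9, against 26.4% of all genes. In C17.2b the ratio went through 1.51, 6.53 and 11.1 at 6, 12 and 24 h for *Car9*, 1.70, 3.08 and 5.17 for *Ero1l*, 1.95, 3.68 and 3.77 for *Bnip3*, and 0.802, 1.30 and 2.53 for *Ndrg1*. In C17.2a the same genes gave 1.50, 2.90 and 8.96, then 1.75, 3.01 and 4.36, then 1.55, 2.24 and 3.96, and then 0.720, 0.948 and 1.01. The *Ndrg1* ratio in C17.2a thus climbed only to parity.

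A ratio can grow because the T3 level climbs or because the untreated level falls. The level at 24 h minus that at 6 h on the log2(RPM + 1) scale was 2.76 with T3 and -0.01 without for *Car9* in C17.2b, and 1.43 with T3 and -1.10 without in C17.2a. For *Ero1l* it was 1.29 with T3 and -0.30 without in C17.2b, and 1.04 with T3 and -0.26 without in C17.2a. For *Bnip3* it was 1.04 with T3 and 0.09 without in C17.2b, and 0.90 with T3 and -0.46 without in C17.2a. For *Ankrd37* it was 0.43 with T3 and -0.74 without in C17.2b, and -0.14 with T3 and -1.60 without in C17.2a. The split between the T3 and the untreated side depends on the scaling. With median-ratio scaling, tried after seeing the data, *Ero1l* had 0.79 with T3 and -0.77 without in C17.2b, and 0.72 with T3 and -0.72 without in C17.2a. *Bnip3* had 0.54 with T3 and -0.39 without in C17.2b, and 0.57 with T3 and -0.92 without in C17.2a. *Car9* had 2.28 with T3 and -0.43 without in C17.2b, and 1.11 with T3 and -1.55 without in C17.2a. *Ankrd37* had -0.062 with T3 and -1.20 without in C17.2b, and -0.46 with T3 and -2.02 without in C17.2a. On both scalings the *Ankrd37* levels without T3 changed more than those with T3. These are differences of single libraries with no test.

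**Figure D3:**
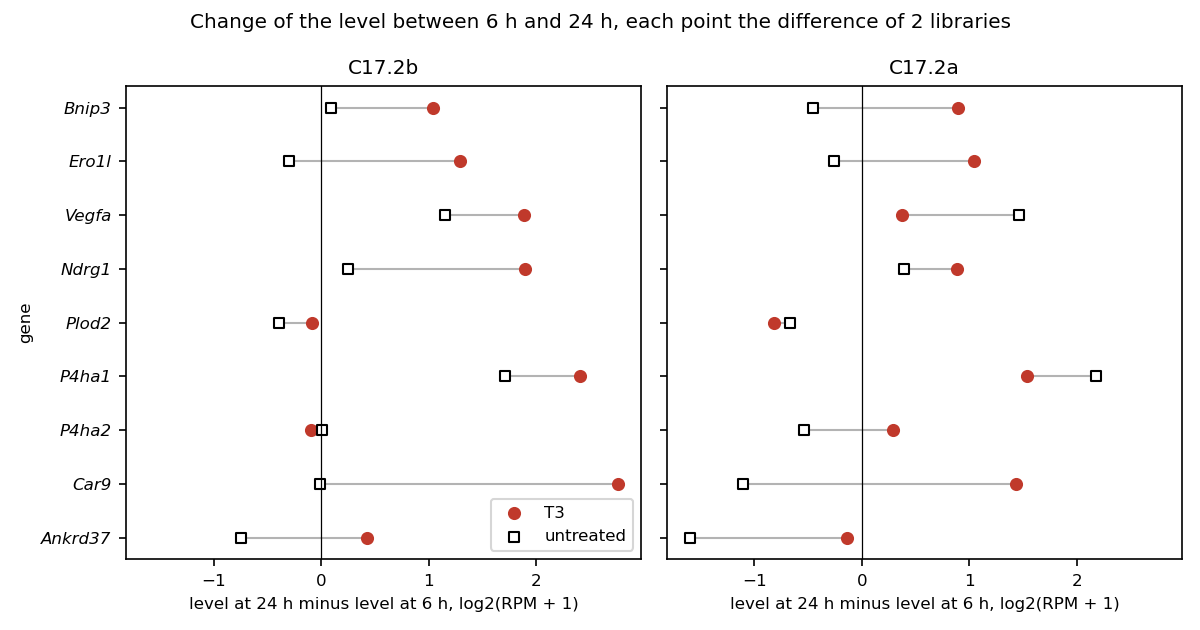
Level at 24 h minus level at 6 h on the log2(RPM + 1) scale (horizontal axis) for 9 genes (rows) in C17.2b (left) and C17.2a (right), with T3 (filled circles) and untreated (open squares), each point the difference of 2 libraries. The T3 circle lies to the right of the untreated square for 8 genes in C17.2b and 6 in C17.2a, and the grey bar between them is the growth of the response.

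Time without hormone moved some of these genes too. In untreated cells, 24 h minus 6 h, *P4ha1* was higher by 1.94 (SE 0.16, adjusted p = 2.47e-05 in limma, line as a block) and *Vegfa* by 1.30 (SE 0.22, adjusted p = 0.000737). *Ankrd37* fell by 1.17 (SE 0.22, adjusted p = 0.00136) and *Plod2* fell by 0.53 (SE 0.18, adjusted p = 0.0293, lost without the 6 h library of either line or the 24 h library of C17.2a). Most of the table moved in this comparison, as 43% of 10192 genes were called higher and 13.1% lower, so 4 of 9 is no more than the table at large. The median over all genes was 0.40, and on median-ratio scaling, which removes that shift, *Bnip3*, *Ero1l*, *P4ha2* and *Car9* were also called lower at 24 h and the value of *Ndrg1* was -0.15 in place of 0.32. On that scaling *P4ha1* and *Vegfa* remained higher.

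The lines were compared next. The T3 response of C17.2b exceeded that of C17.2a by 1.16 (SE 0.42) for *Vegfa*, 1.03 (SE 0.26) for *Plod2* and 0.78 (SE 0.25) for *P4ha1* on the log2 scale, with unadjusted p of 0.0249, 0.00437 and 0.0147 and an adjusted p of 0.722 for each in limma. The other 6 genes had differences of -0.21 to 0.64 (C17.2b minus C17.2a). None of the 9 passed, nor did any of the 10577 genes (0%) in limma, while 5.51% had an unadjusted p under 0.05. For the same 3 genes the gap was widest at 24 h: *Vegfa* had ratios of 5.32, 5.93 and 8.22 at 6, 12 and 24 h in C17.2b and 3.13, 4.65 and 1.37 in C17.2a, *Plod2* had 2.42, 3.66 and 3.05 in C17.2b and 1.30, 1.91 and 1.17 in C17.2a, and *P4ha1* had 1.64, 1.95 and 2.65 in C17.2b and 1.37, 1.36 and 0.882 in C17.2a. The C17.2a value at 24 h rests on the pair that stood apart, and without it again 0 of the 9 passed. Leaving that pair out raised the C17.2a response from 1.34 to 1.80 for *Vegfa*, from 0.50 to 0.64 for *Plod2* and from 0.24 to 0.45 for *P4ha1*. The C17.2b response did not change, so the gap between the lines was smaller for each of these genes.

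Within C17.2b 5 of the 9 genes passed in limma, with 2.25% of all genes called higher and 0.86% lower: *Vegfa* (log2 fold change 2.50, SE 0.30, n = 3 pairs, adjusted p = 0.00495), *Plod2* (1.52, SE 0.19, 0.00528), *Bnip3* (1.58, SE 0.27, 0.018), *P4ha1* (1.02, SE 0.18, 0.0208) and *Ero1l* (1.57, SE 0.32, 0.0386). All 5 lost the call without the 12 h or without the 24 h pair of C17.2b, and 8 passed once the 24 h pair of C17.2a was left out, when calls over all genes numbered 1178, against 329 with it, both lines sharing one estimate of error. The *P4ha1* call needed the C17.2b 6 h pair as well, and that of *Ero1l* the C17.2a 12 h pair. The *Ero1l* call was also lost without a filter (adjusted p = 0.0639) and with median-ratio scaling (0.0508). Within C17.2a *P4ha2* alone passed (0.97, SE 0.18, n = 3 pairs, adjusted p = 0.0412), with 0.908% of all genes called higher and 0.463% lower. Its call was lost without any 1 pair other than C17.2a 24 h (adjusted p 0.0945 to 0.115) and with median-ratio scaling (0.0563). The log2 fold changes of *Ankrd37* (1.59, SE 0.34), *Ero1l* (1.49, SE 0.32), *Vegfa* (1.34, SE 0.30) and *Bnip3* (1.26, SE 0.27) in C17.2a missed the threshold narrowly (adjusted p 0.0717 to 0.0822 in limma), and all 4 passed without the C17.2a 24 h pair. Every T3 library of the line was above every untreated one for 7 of the 9 genes in C17.2b (6.22% of all genes), *P4ha1* and *Ndrg1* being the exceptions, and for 6 in C17.2a (4.86%), where *Plod2* was a further one.

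Without hormone, 3 of the genes were lower in C17.2b than in C17.2a, against 5.92% of all genes lower and 2.93% higher. *Car9* averaged 7.06 RPM in untreated C17.2b cells and 41.1 RPM in untreated C17.2a cells. The log2 difference was -2.29 (SE 0.24, n = 3 libraries each, those of 6, 12 and 24 h, adjusted p = 0.000501 in limma). *P4ha1* averaged 135 RPM in C17.2b and 263 RPM in C17.2a (-0.85, SE 0.13, adjusted p = 0.00357). *Plod2* averaged 15.4 RPM in C17.2b and 26.1 RPM in C17.2a (-0.71, SE 0.15, adjusted p = 0.0164), a call lost without the 6 h library of either line or the C17.2a 12 h library. With T3, *Car9* in C17.2b was at 11.2, 42.2 and 81.4 RPM at 6, 12 and 24 h, below untreated C17.2a cells at 6 and 12 h (48.8 and 52.3 RPM) and above them at 24 h (22.2 RPM). *Plod2* in C17.2b was at 43.5 to 47.6 RPM with T3, above all 3 untreated C17.2a libraries.

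Of 60 other genes known to respond to low oxygen or to control that response, 55 were tested, and 15 were higher with T3 and 1 lower in limma, against 4.09% higher and 2.35% lower of all genes. Their median log2 fold change was 0.44, against -0.01 over all genes tested. *Epas1*, which encodes HIF2A, had the smallest p of the list (log2 fold change 4.14, SE 0.13, adjusted p = 1.34e-06). It was followed by the glycolysis regulator *Pfkfb3* (1.24, SE 0.13, 0.000944), the prolyl hydroxylase *Egln1* (0.90, SE 0.12, 0.00308) and *Higd1a*, a mitochondrial protein induced by low oxygen (1.25, SE 0.18, 0.00466). The gene that fell was *Nfil3*, a basic leucine zipper factor (-1.12, SE 0.17, 0.00508), named after its value was seen. With the 24 h pair of C17.2a left out, 30 were higher and 3 lower, while calls over all genes numbered 1554, against 682 with it.

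The ratios of genes for the factors, and of a directly responding gene, are given beside these. The *Epas1* ratio was 25.6, 25.9 and 25.0 at 6, 12 and 24 h in C17.2b and 16.6, 21.4 and 20.3 in C17.2a. Its level was 48.4, 102 and 193 RPM with T3 in C17.2b, against 1.89, 3.95 and 7.73 RPM untreated. In C17.2a it was 55.1, 60.8 and 172 RPM with T3, against 3.32, 2.84 and 8.47 RPM untreated. Without T3, *Epas1* at 24 h minus 6 h was 1.36 (log2, SE 0.27, adjusted p = 0.00206 in limma), when 43% of all genes were called higher. For *Hif1a*, the other oxygen-regulated subunit, the ratio was 1.52, 1.60 and 1.64 in C17.2b and 1.46, 1.45 and 2.23 in C17.2a. *Hr*, a corepressor gene that T3 raises directly, had 17.6, 13.0 and 12.3 in C17.2b and 16.8, 20.3 and 11.0 in C17.2a. The response at 24 h minus that at 6 h was 0.44 (SE 0.31) for *Epas1*, 0.36 (SE 0.24) for *Hif1a* and -0.37 (SE 0.31) for *Hr* on the log2 scale. The 9 effectors spanned -0.17 to 2.65 on this measure, with *Vegfa*, *Plod2*, *P4ha1* and *P4ha2* below *Epas1* and the other 5 above it. No test of the difference between genes was made.

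Of the closest relatives of the 10 genes 15 were tested, and 2 were higher and 0 lower, with a median of 0.04. Of all genes tested 4.09% were called higher and 2.35% lower. The 2 were the lymphatic growth factor *Vegfc* (0.77, SE 0.13, adjusted p = 0.00927 in limma) and the lysyl hydroxylase *Plod1* (0.84, SE 0.19, 0.033). The *Plod1* call was lost without any 1 of the 5 pairs other than C17.2a 24 h. *Car12*, another surface carbonic anhydrase, had 0.54 (SE 0.20, 0.179) and *Bnip3l*, the other mitophagy receptor of its family, 0.42 (SE 0.16, 0.202), both of which the list of 60 genes also holds. Of 3 receptor genes tested, the VEGF coreceptor *Nrp1* was higher (1.61, SE 0.13, adjusted p = 0.000249), and *Nrp2* (0.25, SE 0.10, 0.241) and *Ramp1* (0.30, SE 0.24, 0.587) did not pass.

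Collagens, the substrates of the hydroxylases, and their processing enzymes had 1 of 25 genes higher and 2 lower, with a median of 0.00. With 4.09% of all genes called higher and 2.35% lower, few calls would fall in any list of this size or smaller. The prolyl 3-hydroxylase *Leprel1* (now *P3h2*) was higher (1.18, SE 0.19, adjusted p = 0.00693 in limma), *Col5a2* (-0.51, SE 0.08, 0.00652) and *Col18a1* (-0.51, SE 0.11, 0.0205) were lower, and the collagen chaperone *Serpinh1* had 0.61 (SE 0.18, 0.0846). *Col18a1* lost its call without either 12 h pair or without the 24 h pair of C17.2b, and 4 genes of this list were higher without the 24 h pair of C17.2a. Genes of the unfolded protein and ATF4 response had 0 of 23 higher and 1 lower, with a median of 0.05. That gene was *Atf3* (-0.88, SE 0.18, adjusted p = 0.019), a stress-induced factor whose call likewise needed both 12 h pairs and the C17.2b 24 h pair; 2 genes were higher without the 24 h pair of C17.2a. The next smallest p values belonged to *Dnajc3* (0.32, SE 0.09, 0.0703), *Herpud1* (0.19, SE 0.08, 0.253) and *Hsp90b1* (0.20, SE 0.10, 0.363). A list of mitophagy and autophagy genes without *Bnip3* and *Bnip3l* had 0 of 16 past the threshold in either direction in limma (1 higher without the C17.2a 24 h pair). In it *Sqstm1* was at 0.23 (SE 0.11, 0.313), *Pink1* at 0.24 (SE 0.13, 0.396), *Bcl2l1* at -0.22 (SE 0.13, 0.45) and *Bcl2l13* at 0.25 (SE 0.17, 0.489). Outside it *Trp53inp2*, an autophagy regulator picked for its likeness to the 9 genes, was higher (1.13, SE 0.16, adjusted p = 0.00395 in limma).

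**Figure D4:**
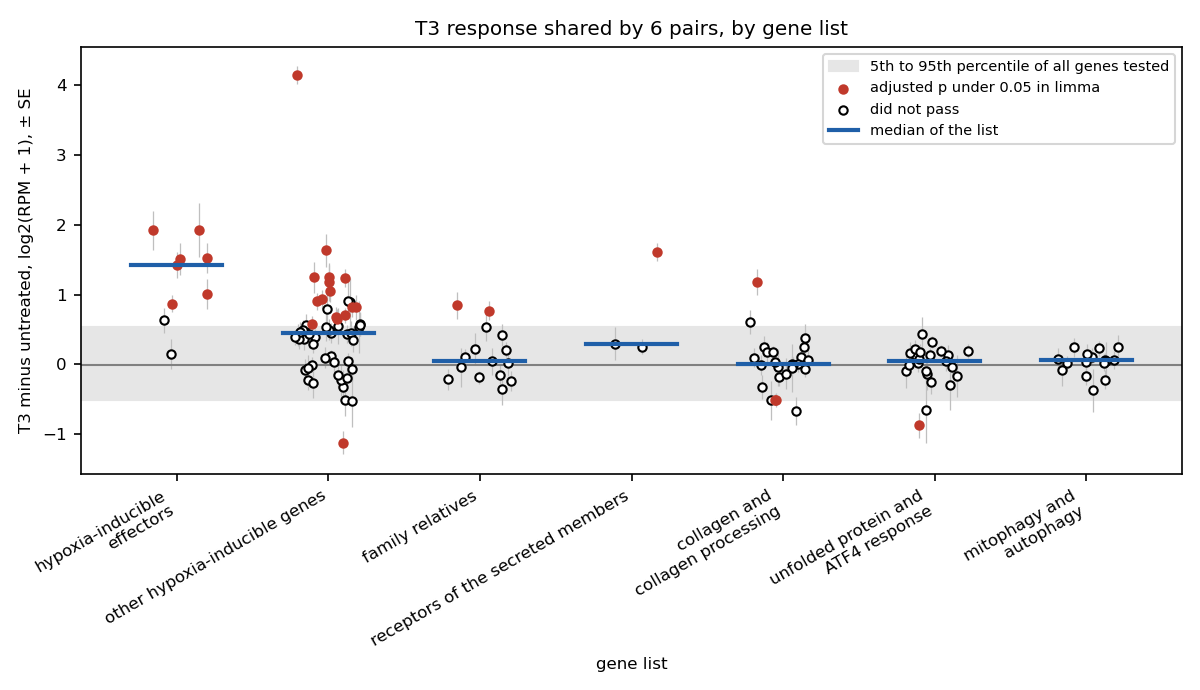
T3 minus untreated on the log2(RPM + 1) scale over 6 pairs (vertical axis, error bars are SE) for every tested gene of 7 lists (horizontal axis), red where adjusted p was under 0.05 in limma and open where it did not pass. The blue bars are list medians, 1.42 for the 9 effector genes and 0.44 for other hypoxia-inducible genes, and the grey band spans the 5th to 95th percentile of all genes tested.

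The 5 genes outside the list whose levels over the 12 libraries were most like the mean of the 9 (each scaled to its own mean and SD) were *Rasal2*, a Ras GTPase-activating protein (Pearson r 0.970), *Cpt1a*, which carries fatty acids into mitochondria (0.967), *Trp53inp2*, an autophagy regulator (0.963), *B3gnt2*, a glycosyltransferase (0.959), and *Egln1* (0.956). The libraries share line, time and hormone, so these values only describe likeness. *Cpt1a* ranged from 90.8 to 160 RPM with T3 and from 54.1 to 82.8 RPM without, and *Egln1* from 183 to 243 RPM with T3 and from 97.9 to 151 RPM without. Neither overlapped between the groups, with T3 above untreated as in 1.47% of all genes tested. Picking genes for likeness to genes that differ with T3 favours this pattern, so it is no separate result.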

How the data were processed

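PolyA RNA from 12 samples of C17.2 cells was reverse-transcribed and sequenced as digital gene expression tags, per the labels' protocols. The authors deposited 1 table of RPM for 12774 gene symbols, a unit read from the values, since each column sums to the same round total. The build was mm9, per the submitters' processing notes. The aligner, the rule that assigns tags to genes and the filters are not given in the sources used here. An N/A was read as 0. Low values lay on steps worth 1 tag (88.9% to 93.8% of them, tolerance 0.0055 RPM), which gives the implied depth, but since the rest did not, no count test was run.

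The tests used log2(RPM + 1), a scale that understates changes of low genes, with limma 3.58.1 in R 4.3.3 (empirical Bayes with a mean-variance trend). P-values were adjusted by the Benjamini-Hochberg method over every gene that reached 1 RPM in 3 or more libraries of the fit, and called at 0.05. Each pair of a T3 and an untreated library of 1 line and time was a block. The response was fitted as shared, by line, or by time, and untreated libraries were fitted with line and time as terms. Whether the libraries come from separate cultures is not in the labels, so p-values of the T3 responses measure only the spread between these pairs, which may be technical. In the untreated fits, with 2 residual degrees of freedom, the times served as repeats of a line and the lines as repeats of a time. Their p-values therefore do not measure a spread between replicate libraries. The code was tested on simulated data. The members, the gene lists and the tests were chosen with earlier results of these data known. Named were all members, up to 4 genes of each list with the smallest p, *Epas1*, *Hif1a* and *Hr*, and the 5 genes most like the members. Listed genes that did not match the table (for example 4 of the 60) were not analysed here. Alternatives were other pseudocounts (0.5 and 5), filters (none and 5 RPM), median-ratio scaling, no pair block, leaving out pairs or the 24 h libraries, single lines, time in hours as a number and, for untreated cells, all 12 libraries, plus leaving out each untreated library and median-ratio scaling of single levels, both chosen after seeing the data. Promoter windows are RefSeq sequences of GRCm38.p6, which is not the authors' build, and the table itself holds no coordinates.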

Additional observations from a re-analysis of the deposited data

Results flagged for a closer look

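*P4ha2* in the C17.2a 24 h pair lay apart from the other pairs. This is the pair that stood apart across all genes (Spearman correlation 0.941, and 875 genes with no value in its T3 library). The log2 ratio of *P4ha2* there was 1.50, against 0.62 to 0.94 in the other 5, with 304 RPM in the T3 library and 107 RPM in the untreated one, the lowest untreated level of the gene. About 1 in 20 sets of values would be picked by chance under this criterion, which was applied to the pair ratios of each of the 9 genes.

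The T3 library of *Ndrg1* was the lower one in both pairs of 6 h and the higher one in both pairs of 24 h. Neither response passed in limma (-0.39 at 6 h, adjusted p = 0.968, and 0.68 at 24 h, adjusted p = 0.33). The response at 24 h minus that at 6 h was 1.07 on the log2 scale (SE 0.43, unadjusted p = 0.0411, adjusted p = 0.726 in limma), and the ratio at 24 h in C17.2a was 1.01, so a reversal is not established.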

How the results depend on the processing

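The shared calls of *Bnip3*, *Ero1l*, *Vegfa*, *P4ha2* and *Ankrd37* held under every alternative run for that comparison. The number of the 9 genes called stayed within 1.5 times the reported one under every setting for the shared response (5 to 8 over left-out pairs, against 7) and for untreated C17.2b minus C17.2a (2 to 4 over left-out libraries, against 3). In C17.2a, where 1 was called, it was 0 with a pseudocount of 5, 0 without a filter, 5 without a pair block, 6 without the 24 h libraries, 0 from that line alone, and 0 to 5 over left-out pairs. In C17.2b, where 5 were called, it was 8 without the 24 h libraries, 8 from that line alone and 0 to 8 over left-out pairs. Left-out pairs gave 0 to 6 at 6 h (0 reported), 0 to 8 at 12 h (3 reported, and 1 without a filter), 0 to 8 at 24 h (4 reported) and 0 to 7 for 24 h minus 6 h (0 reported). For 24 h minus 6 h without T3, where 4 were called, it was 8 with median-ratio scaling, 2 with all 12 libraries (*Vegfa* and *Plod2* lost) and 3 to 6 over left-out libraries. The difference between lines and 12 h minus 6 h had 0 called throughout.

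These values changed sign. Without the 24 h libraries, the shared response was -0.12 for *Ndrg1* and -0.032 for *Bcl2l13*, and C17.2b minus C17.2a was -0.0049 for *Ero1l*, 0.13 for *P4ha2* and 0.0399 for *Ankrd37*. With median-ratio scaling it was -0.064 for *Ero1l*, 12 h minus 6 h was -0.036 for *Ankrd37*, and untreated 24 h minus 6 h was -0.15 for *Ndrg1*. The response at 24 h minus 6 h was 0.081 for *Vegfa* with a pseudocount of 5 and -0.0285 for *Plod2* with time in hours as a number. Over left-out pairs, C17.2b minus C17.2a ranged from -0.31 to 0.48 for *Ero1l*, -0.36 to 0.053 for *P4ha2*, -0.20 to 1.19 for *Car9* and -0.52 to 0.36 for *Ankrd37*, and 24 h minus 6 h from -1.43 to 1.08 for *Vegfa*, -0.58 to 0.74 for *Plod2*, -0.76 to 0.82 for *P4ha1* and -0.083 to 0.80 for *P4ha2*. Likewise 12 h minus 6 h ranged from -0.14 to 0.37 for *P4ha1* and -0.16 to 0.24 for *Ankrd37*, *Ndrg1* from -0.092 to 0.27 shared and -0.076 to 0.38 at 12 h, and *P4ha1* at 24 h from -0.18 to 1.40. Over left-out untreated libraries, *Ankrd37* ranged from -0.054 to 0.37 for C17.2b minus C17.2a, and 24 h minus 6 h from -0.43 to 0.0598 for *Bnip3*, -0.58 to 0.0595 for *P4ha2* and -1.17 to 0.055 for *Car9*. The cause was not tested. With 1 library per condition, depth limits *Adm* alone among the 10 genes.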
